A study of Glycine max with 2 samples.

Results

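The defense/stress and transcription genes on a list of differential tags were examined in shoot tips of Clark glabrous (CG) and Clark standard (CS), a pair of soybean isolines. The members are the Glyma models (cDNA models predicted from the Williams 82 genome) that the study paired with a Digital Gene Expression (DGE) tag of the category defense/stress or transcription. DGE counts short tags near the 3' end of transcripts. A tag entered the list when its DGE abundance differed at least 2-fold between the lines and reached a set minimum, so rare tags were left out. Those DGE values were not analysed here. Of the 167 tags on the list, 45 belonged to the 2 categories, 21 to defense/stress and 24 to transcription. A model was paired with 38 of these tags and none with the other 7. The 38 tags gave 35 distinct models of 34 loci, out of 78773 models of 69145 loci in the RNA-Seq tables. Of the 35 models, 14 were in the defense/stress category and 22 in the transcription category, with Glyma02g42860.1 in both. Tags higher in CS by DGE chose 31 of the models, and tags higher in CG chose 4.

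CG is hairless and carries the dominant P1 glabrous allele, which was brought into Clark by repeated backcrossing. CS is the wild type of the pair, with trichomes. Both were grown in a greenhouse without a treatment, and young shoot tips of several plants, about 4 weeks old, were pooled for 1 RNA-Seq library per line. The RNA-Seq plants were a separate growth from those used for DGE. With 1 RNA-Seq library per line no difference has a replicate by the same method, and no p-value is given. A difference between the lines cannot be told apart from one between these pools of plants. For most members the direction by DGE, from the other growth, was the opposite one, as given below. In pooled tissue, fewer cells of a type and less RNA per cell also cannot be told apart.

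The groups of genes on this list serve well known roles in plants. Jasmonate is a hormone made from membrane lipids after wounding and insect feeding, and it acts by removing JAZ proteins, which hold back transcription factors. WRKY proteins are transcription factors of immune and stress responses, and VQ proteins are their partners. NAC, zinc finger, basic helix-loop-helix and bZIP proteins are other large families of plant transcription factors. Chitinases and pathogenesis-related proteins act against microbes, and dehydrins accumulate when cells lose water. In many plants the jasmonate and WRKY genes are transcribed within minutes to hours of touch, injury or infection.

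The tags that link the list to the models are 16 bases long. The tags of the JAZ, allene-oxide cyclase and WRKY models and of the putative transcription factor pair are shown because their families had the largest median differences between the lines. Sequences are written 5' to 3' as the study lists them. In the first pair, which the study marks as antisense to its models, the capital letter is the base that differs between the JAZ loci.
Glyma09g08290.3 (JAZ, chromosome 9, antisense tag): tatgatacgGcccagc
Glyma15g19840.1 (JAZ, chromosome 15, antisense tag): tatgatacgAcccagc
Glyma09g08290.1 (JAZ, chromosome 9): taactattggttagtt
Glyma19g05980.1 (allene-oxide cyclase, chromosome 19): ttgtgaattttttagt
Glyma07g02630.1 (WRKY27, chromosome 7): tttcataaagtgcatc
Glyma19g44380.1 (WRKY43, chromosome 19): ctgactatggaagggt
Glyma02g46610.1 (putative transcription factor, chromosome 2): ttcttcagtaaagaga
Glyma14g01990.1 (putative transcription factor, chromosome 14): agggaagacttggaga

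The antisense JAZ tags differ by the single substitution G10A, counted from 1 at the 5' end of the tag. Among the 703 pairs that the 38 tags form, this was the only pair with 3 or fewer differences. Glyma02g42860.1 was paired with 3 tags, 1 of them antisense, and Glyma06g47740.1 with 2. For 3 models the pairing rests on an antisense tag alone. The paper states that the WRKY43 tag also matches Glyma03g41750, and it assigns the tag to Glyma19g44380 by its place near the 3' end. The RNA-Seq values below belong to the whole model and not to the tag.

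The authors gave RNA-Seq values in RPKM, reads per kilobase of model scaled to library size, so that levels of different models can be set side by side. For 69117 of the 69123 models with a value above 0, a model length was found at which both values were whole numbers of alignments. For the other 6 none was found. The totals used for this, recovered from the values, were 147273809 alignments in CG and 152791817 in CS. They exceed the paper's numbers of aligned reads, which were larger in CG than in CS. A number was taken as whole within the rounding of the deposited value, which for the members came to at most 8.56e-05 of an alignment. By the smallest length that fits, the members rested on 49 to 64509 alignments in CG and 55 to 41567 in CS. The true numbers may be multiples of these. Reads were allowed to align to several models, so the alignments are not independent molecules and intervals from them cover counting error only. Log2 CG/CS ratios were taken after adding 0.1 RPKM to both values. A model is called expressed here when its mean over both lines was at least 1 RPKM. Over the 43753 expressed models the median log2 CG/CS ratio was 0.34, so a ratio near this value is the middle of the data.

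Most of the members were at least 2-fold higher in CG. By direction alone, the RPKM was higher in CG for 27 of the 34 expressed members, a share near the 72.7% of all expressed models that were higher in CG. After the median of all expressed models was subtracted from the ratios (median-centring), 25 of the 34 were higher in CG, against 50.0% of all expressed models. By size, 24 of the 34 exceeded CS by 2-fold or more in CG (70.6%), as did 13.9% of all expressed models. A level at least 4-fold higher in CG was found for 21 members, against 3.54% of all expressed models, and one at least 10-fold higher for 12 members, against 0.987%. In the other direction 0 of the 34 passed 2-fold toward CS, as 5.57% of all expressed models did. The median log2 CG/CS ratio of the members was 2.52. The 1 member of the 35 that was not expressed by this limit was Glyma19g43460.1, annotated as the wound-induced protein WIN2.

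In RPKM, the members ranged over 0.784 to 250.8 in CG, with a median of 28.6, and over 0.882 to 139.4 in CS, with a median of 7.44. An RPKM of 10 or more was reached by 30 members in CG and by 12 in CS. Over all models, 18.3% reached this level in CG and 14.7% in CS, but the members' tags had been chosen above a minimum abundance, so nothing is read from their higher share. Across the 35 members, the log2 CG/CS ratio had a Spearman correlation of 0.64 with the RPKM in CG and of -0.32 with that in CS. This is a description across genes of the same 2 libraries, and the ratio contains both levels.

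**Figure D1:**
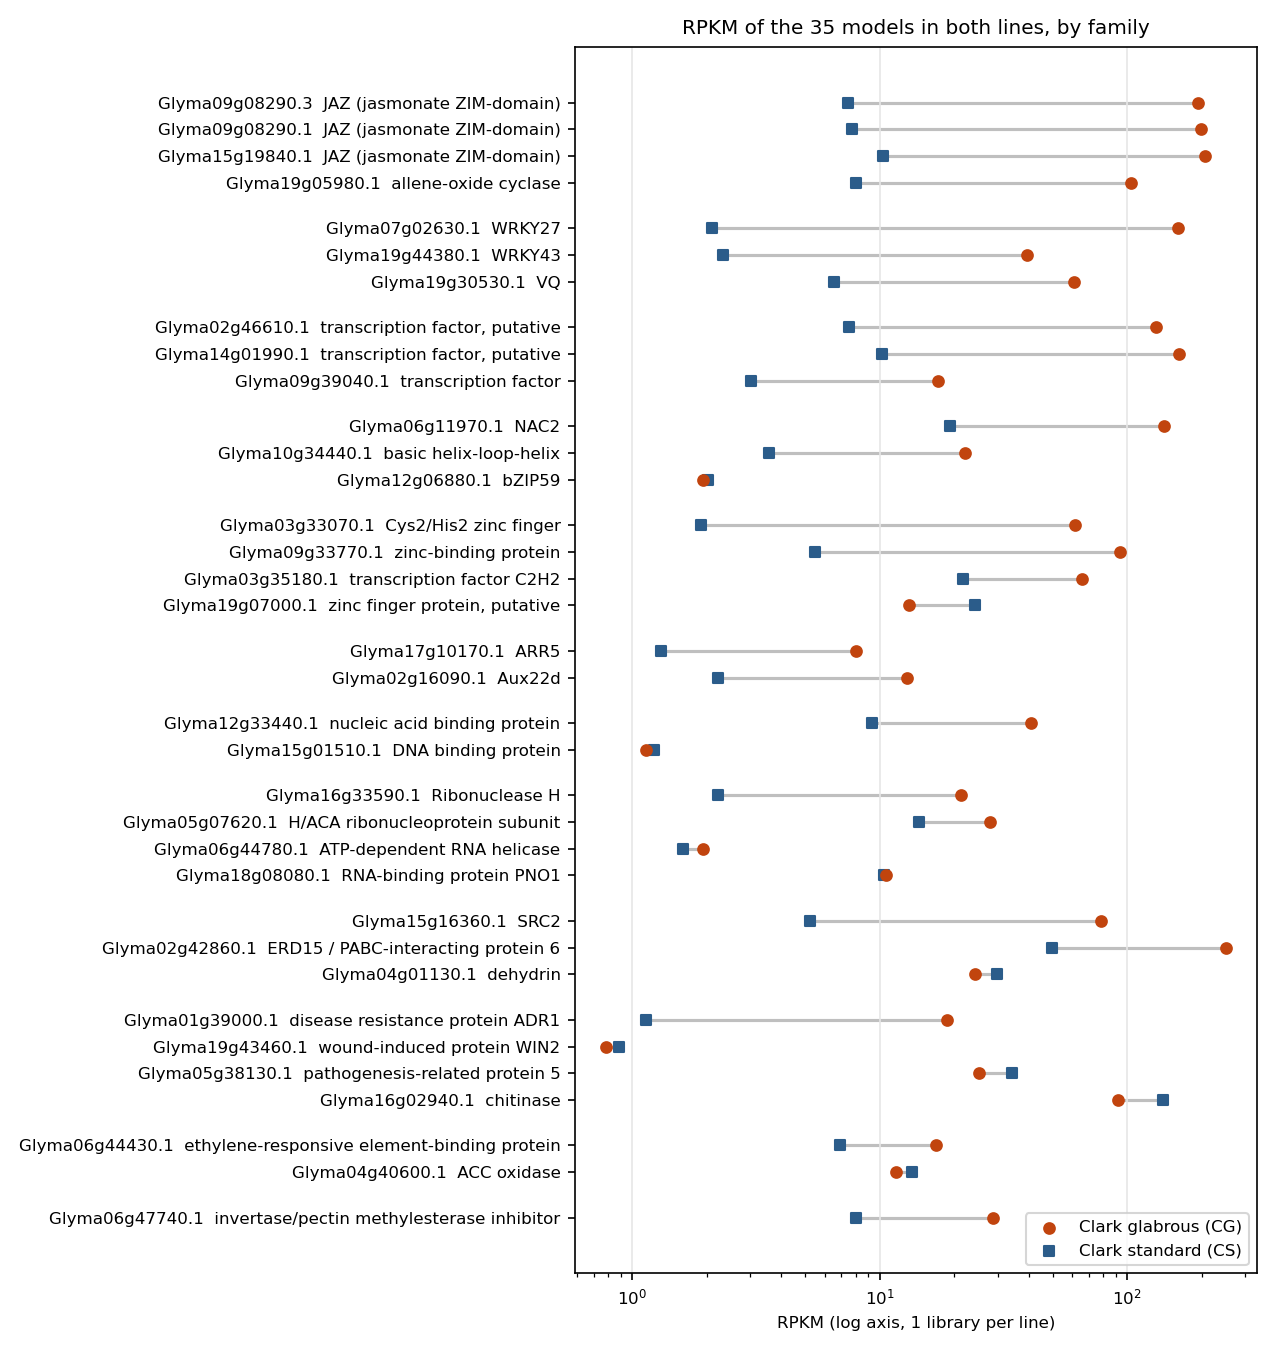
RPKM of each of the 35 models on a log axis, in CG (circles) and CS (squares), with 1 library per line and a grey line between both values. The models are grouped by family, and the 4 jasmonate models lie between 104 and 207 RPKM in CG and between 7.44 and 10.3 RPKM in CS.

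The jasmonate genes were the group with the highest median RPKM in CG. JAZ proteins repress jasmonate responses, and their own genes are among those that jasmonate turns on. Glyma09g08290.1 had an RPKM of 199 in CG and 7.69 in CS, a log2 CG/CS ratio of 4.68. The antisense-tagged model of the same locus, Glyma09g08290.3, had 193 RPKM in CG and 7.44 in CS. Glyma15g19840.1, on chromosome 15, had 207 RPKM in CG and 10.3 in CS, a log2 ratio of 4.31. The JAZ models of both loci were thus about equally abundant in CG, where they had ranks 329 to 375 by RPKM among the 78773 models, against ranks 11157 to 15358 in CS. The authors' alignment let a read count on each of several JAZ models where it matched them, so these values are not independent.

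Allene-oxide cyclase makes the precursor of jasmonic acid in the chloroplast. Its model, Glyma19g05980.1, had an RPKM of 104 in CG and 8.01 in CS. The CG value was 13.0-fold the CS value, with an exact (Clopper-Pearson) 95% interval of 12.4-fold to 13.6-fold from 25183 alignments in CG and 2013 in CS. All 4 jasmonate models were at least 10-fold higher in CG, against 0.987% of all expressed models, and their median log2 ratio was 4.49. Glyma09g08290.1 and Glyma09g08290.3 belong to 1 locus and were counted separately in both figures.

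The WRKY and VQ models held the member with the largest ratio. WRKY proteins bind W-box elements in the promoters of defense genes. Glyma07g02630.1, annotated as WRKY27, had an RPKM of 161 in CG and 2.11 in CS. Its CG value was 76.4-fold the CS value (exact 95% interval 70.0-fold to 83.5-fold), from 37321 alignments in CG and 507 in CS. By RPKM it had rank 520 in CG and rank 33834 in CS. Glyma19g44380.1, annotated as WRKY43, had 39.4 RPKM in CG and 2.32 in CS, a log2 ratio of 4.03 that rests on 1313 alignments in CG and 80 in CS. VQ proteins bind WRKY factors through a short conserved motif. The VQ model Glyma19g30530.1 had 60.8 RPKM in CG and 6.52 in CS, a log2 ratio of 3.20. The recovered lengths of the WRKY43 and VQ models, 226 and 229 bases, are the smallest that fit, and the true lengths may be multiples of them. The alignments given are likewise the lowest whole numbers that account for both values.

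Models annotated only as transcription factors were also higher in CG. Glyma02g46610.1 had an RPKM of 131 in CG and 7.49 in CS, a log2 ratio of 4.11. Glyma14g01990.1, which has the same annotation text, had 162 RPKM in CG and 10.2 in CS, a log2 ratio of 3.97. These values of the chromosome 2 and chromosome 14 models lay close to each other within each line. Whether reads counted on both models was not measured, so this likeness is no independent support. The third model, Glyma09g39040.1, was far less abundant, with 17.3 RPKM in CG and 3.01 in CS.

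NAC proteins act in organ boundaries, senescence and stress. The NAC2 model Glyma06g11970.1 had an RPKM of 140.5 in CG and 19.2 in CS, a log2 ratio of 2.86. The basic helix-loop-helix model Glyma10g34440.1 had 22.2 RPKM in CG and 3.58 in CS, a log2 ratio of 2.60. By contrast, the bZIP59 model Glyma12g06880.1 had 1.92 RPKM in CG and 2.03 in CS. The exact interval of its CG value over its CS value, 0.826-fold to 1.09-fold, includes equal levels.

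The zinc finger models went both ways. Proteins of the Cys2/His2 type hold a zinc ion between cysteines and histidines, and many act as repressors in stress responses. Glyma03g33070.1, of this type, had an RPKM of 61.5 in CG and 1.90 in CS, a log2 ratio of 4.95, the next largest after WRKY27. The zinc-binding model Glyma09g33770.1 had 93.9 RPKM in CG and 5.47 in CS, a log2 ratio of 4.08. The C2H2 model Glyma03g35180.1 had 65.5 RPKM in CG and 21.7 in CS, a log2 ratio of 1.59 from a higher level in CS than that of the other zinc finger models higher in CG. Glyma19g07000.1, a putative zinc finger protein, had 13.1 RPKM in CG and 24.2 in CS. Its log2 ratio of -0.88 was the lowest of all members, and it passed 2-fold toward CS, at -1.22, when the ratios were median-centred.

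Both hormone response regulators were higher in CG, at low levels. ARR5 belongs to the type-A response regulators of Arabidopsis, which cytokinin induces and which dampen its signal. The ARR5 model Glyma17g10170.1 had 8.02 RPKM in CG and 1.30 in CS, a log2 ratio of 2.54. Aux22d is an Aux/IAA protein of mung bean, a class of auxin-induced repressors, and its soybean model Glyma02g16090.1 had 12.9 RPKM in CG and 2.21 in CS, a log2 ratio of 2.50.

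The RNA-related and nucleic acid binding models were split between close levels and levels higher in CG. Glyma18g08080.1, annotated as PNO1, which in yeast takes part in making the small ribosomal subunit, had 10.6 RPKM in CG and 10.4 in CS. The H/ACA ribonucleoprotein model Glyma05g07620.1, a part of the machinery that modifies ribosomal RNA, had 27.8 RPKM in CG and 14.5 in CS, a log2 ratio of 0.94 and just below 2-fold. The RNA helicase model Glyma06g44780.1 had 1.94 RPKM in CG and 1.61 in CS. Glyma16g33590.1, annotated as Ribonuclease H, stood apart from these, with 21.2 RPKM in CG and 2.21 in CS, a log2 ratio of 3.20. Of the nucleic acid binding models, Glyma12g33440.1 had 40.8 RPKM in CG and 9.33 in CS, a log2 ratio of 2.12. Glyma15g01510.1, paired through an antisense tag alone, had 1.13 RPKM in CG and 1.22 in CS from 49 and 55 alignments, and at this depth no difference was detectable.

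**Figure D2:**
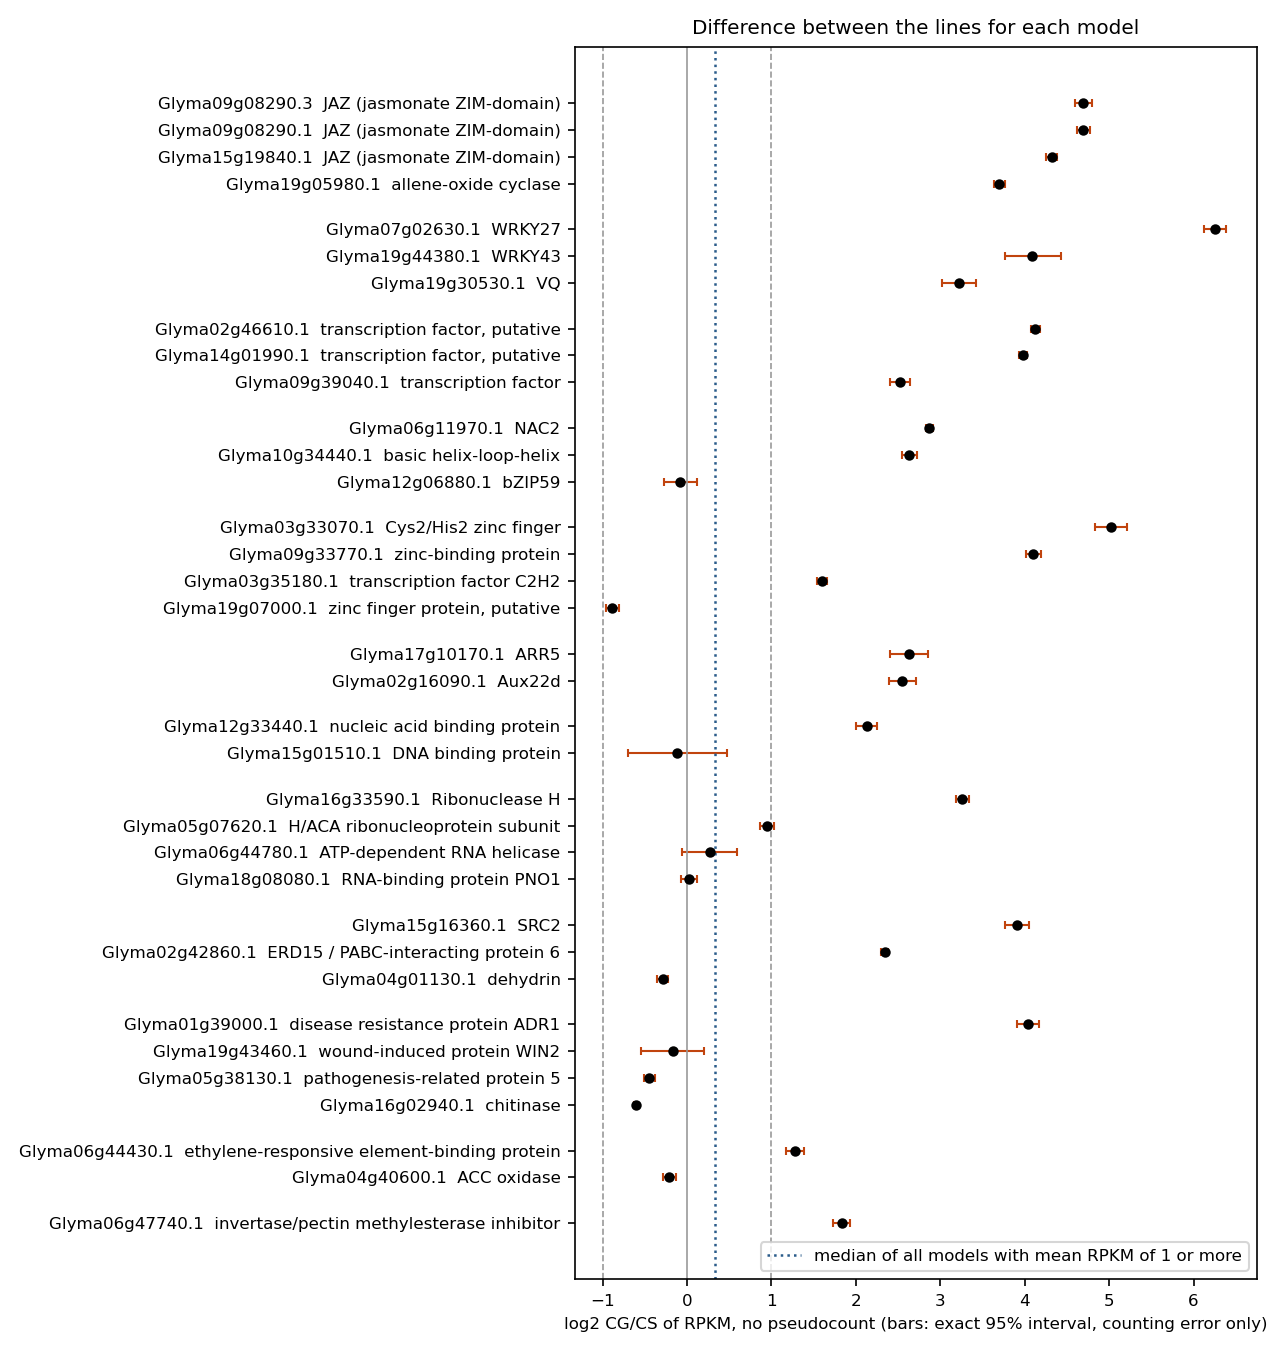
Log2 CG/CS of the RPKM values of each model without a pseudocount, with exact 95% intervals that cover counting error only. Dashed lines mark 2-fold, and WRKY27 lies farthest to the right. The dotted line marks the median of all expressed models, 0.34 with the pseudocount of 0.1 RPKM.

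Of the dehydration and cold models, SRC2 and ERD15 were higher in CG and the dehydrin was not. SRC2 is a membrane-associated protein first found in soybean as induced by cold. Its model, Glyma15g16360.1, had an RPKM of 78.3 in CG and 5.22 in CS, a log2 ratio of 3.88. Glyma02g42860.1 carries 2 annotations on different tags, early response to dehydration 15 (ERD15) and a partner of the poly(A)-binding protein. It was the most abundant member in CG, with 250.8 RPKM in CG and 49.4 in CS, a log2 ratio of 2.34. Dehydrins are hydrophilic proteins that protect membranes and enzymes, and the model Glyma04g01130.1 had 24.3 RPKM in CG and 29.7 in CS.

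Of the 4 models for defense against microbes, ADR1 alone was higher in CG. ADR1 is a disease resistance protein of the nucleotide-binding type that in Arabidopsis helps other immune receptors. The ADR1 model Glyma01g39000.1 had an RPKM of 18.7 in CG and 1.14 in CS, a log2 ratio of 3.92. Chitinases cut the chitin of fungal walls, and Glyma16g02940.1 was the most abundant member in CS, with 91.9 RPKM in CG and 139.4 in CS. Its CS value was 1.52-fold its CG value. Glyma05g38130.1, annotated as a pathogenesis-related protein of the thaumatin type, had 25.1 RPKM in CG and 34.3 in CS. WIN2, a chitin-binding protein that wounding induces in potato, was low in both lines, with 0.784 RPKM in CG and 0.882 in CS for Glyma19g43460.1.

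The ethylene models differed less than the jasmonate models. Ethylene-responsive element-binding proteins carry the response to ethylene to its target genes. The model Glyma06g44430.1 had 16.9 RPKM in CG and 6.93 in CS, a log2 ratio of 1.27, which was 0.93 after median-centring and 0.94 after scaling to equal upper quartiles, below 2-fold in either case. ACC oxidase makes ethylene in the last step of its synthesis, and Glyma04g40600.1 had 11.7 RPKM in CG and 13.5 in CS. The invertase or pectin methylesterase inhibitor Glyma06g47740.1, of a class of small proteins that block enzymes of sugar and wall metabolism, had 28.6 RPKM in CG and 8.04 in CS, a log2 ratio of 1.82.

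The direction by RNA-Seq was set beside the part of the list that chose each model. Tags higher in CS by DGE had chosen 31 models. RNA-Seq gave a higher RPKM in CG for 26 of these, beside the 72.7% of all expressed models that lay in that direction. Of the 30 expressed ones, 23 passed 2-fold toward CG, as did 13.9% of all. Their median log2 CG/CS ratio was 2.73. RNA-Seq thus went against the DGE direction for most of these models. Of the 91 models of the other list categories with tags higher in CS, 60 were higher in CG by RNA-Seq. By direction alone this share does not exceed the 72.7% of all expressed models. Of the 89 expressed ones, 43 passed 2-fold toward CG (48.3%) and 17 passed it toward CS, against 13.9% and 5.57% of all expressed models. The paper, by contrast, states that most genes higher in CS by DGE were also higher there by RNA-Seq. Of the 4 models whose tags were higher in CG by DGE, the inhibitor Glyma06g47740.1 was higher in CG, and the dehydrin, the thaumatin-type protein and ACC oxidase were higher in CS by less than 2-fold. The DGE and RNA-Seq libraries came from different plants, and the part that plants or methods have in this was not tested.

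The 108 models of the other categories of the same list were taken for comparison. Of the 106 expressed ones, 50 passed 2-fold toward CG (47.2%) and 19 passed it toward CS, with a median log2 ratio of 0.57. These shares and the 70.6% and 0 of the members are descriptions of the same 2 libraries, and the difference between them was not tested. After median-centring, 23 of the 34 members were at least 2-fold higher in CG (67.6%), against 8.37% of all expressed models. At least 2-fold higher in CS was 1 member, against 9.41% of all expressed models.

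**Figure D3:**
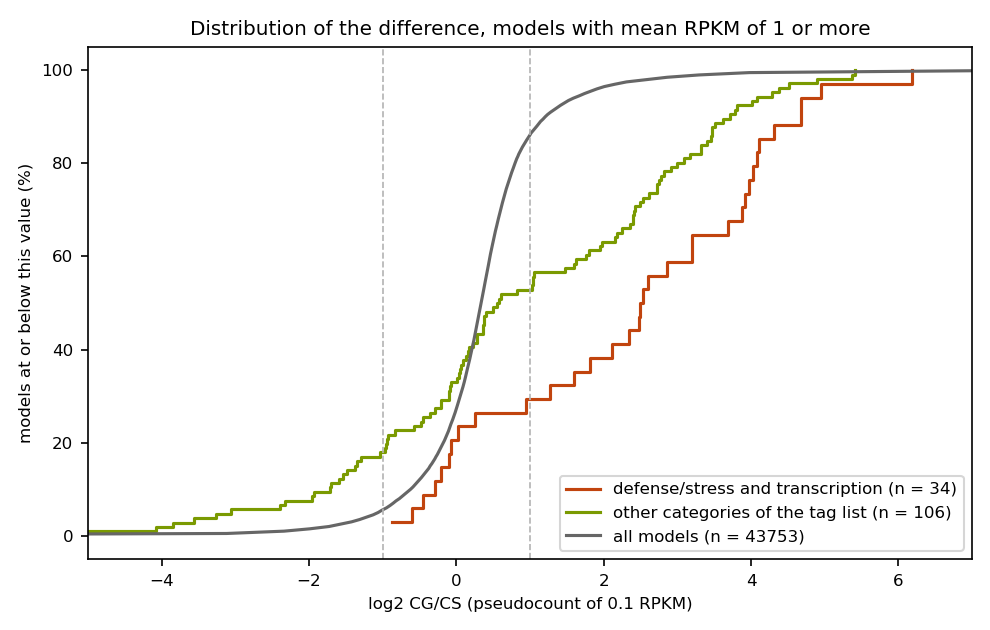
Share of models at or below each log2 CG/CS value, for the 34 members, the 106 models of the other categories and all 43753 expressed models. The axis starts at -5 and leaves out lower ratios, and its upper end leaves out the highest ratios, which reach 7.78. The curve of the members lies to the right of both others over most of its range, with medians of 2.52, 0.57 and 0.34.

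**Figure D4:**
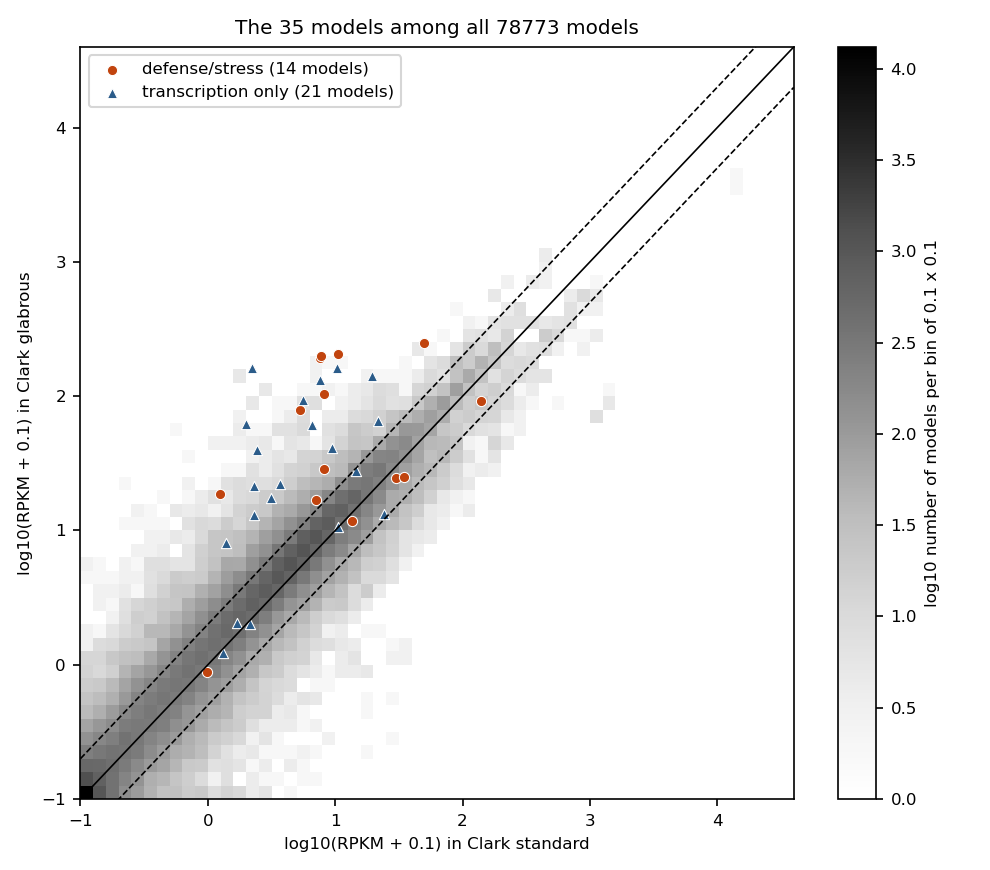
RPKM in CG against RPKM in CS, both as log10 after adding 0.1, with the number of models per bin in grey and the 35 members as coloured points. The dashed lines mark 2-fold, and 24 of the 34 expressed members lie at or above the upper one.

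Several models of a locus differ in their exons, and each has its own value. At 10 of the 34 member loci the tables hold several models, 25 in all. Of the 14 models there that no tag was paired with, 11 were expressed and passed 2-fold toward CG, as the paired models of their loci did. Among all expressed models 13.9% passed it, but the 11 models lie at loci of members already counted. The dehydrin model Glyma04g01130.2 and the ACC oxidase model Glyma04g40600.2 had log2 ratios of -0.27 and -0.20, close to their paired models. The dehydrin model Glyma04g01130.3 was listed at 0 in both libraries, unlike its paired model. At the JAZ locus Glyma15g19840 the 4 models had log2 ratios from 4.29 to 4.40, and at Glyma09g08290 the 3 models had ratios from 4.66 to 4.68. The 3 models of ARR5 spanned 2.45 to 2.56. A read could count on several models of a locus, and how many did was not measured, so this likeness is no independent support.

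**Figure D5:**
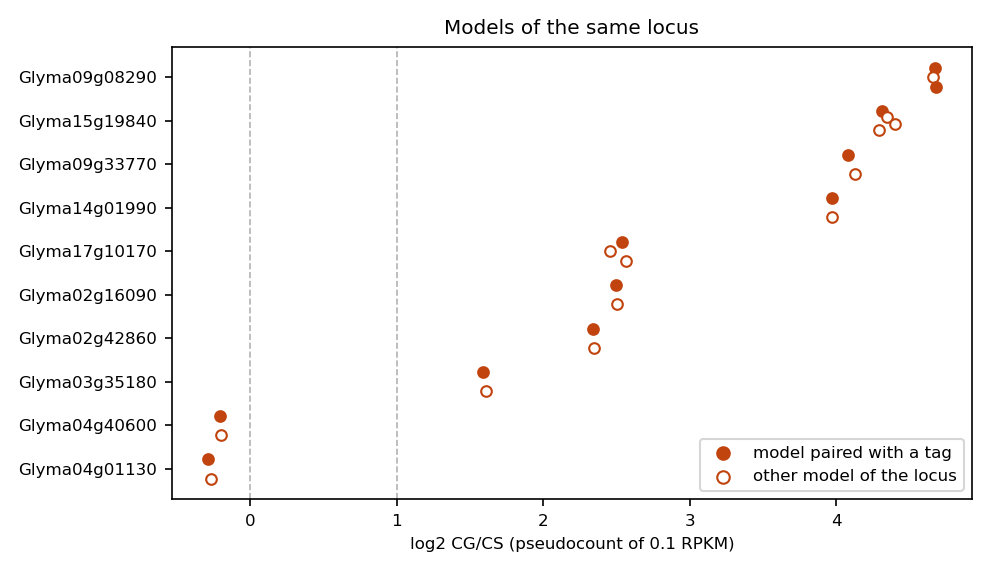
Log2 CG/CS of every model above 0 at the 10 member loci with several models, filled where a tag was paired with the model and open for the other models. At each locus the models lie within 0.11 of each other on the log2 scale.

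Other models of the tag list have annotations that tie them to defense, although the study put them into other categories. A list of 9 such models was picked by annotation with earlier results known, and it is not complete. Left out were, for example, a wall-associated kinase (Glyma13g09420.1), a receptor-like protein kinase (Glyma12g36160.1) and a lipid transfer protein (Glyma05g09160.1). Tags higher in CG by DGE had chosen these. The counts for the list therefore depend on the picking. Of the 9 models, 7 passed 2-fold toward CG and 1 passed it toward CS, with a median log2 ratio of 2.53. Among all expressed models 13.9% passed it toward CG and 5.57% toward CS, and in the other categories of the tag list 47.2% passed it toward CG. Mitogen-activated protein kinases pass on signals of wounding and microbes. Their models Glyma11g15700.1 and Glyma12g07770.1 had 123 and 99.1 RPKM in CG, against 2.79 and 2.29 RPKM in CS. Protein phosphatases of type 2C oppose such kinases and abscisic acid signals, and Glyma14g37480.1 and Glyma02g39340.1 had 60.5 and 48.2 RPKM in CG, against 4.50 and 4.71 RPKM in CS. The Hs1pro-1-like model Glyma11g35050.1 had 10.3 RPKM in CG and 1.71 in CS, and the hin1-like model Glyma03g35920.1 had 16.7 RPKM in CG and 4.26 in CS. The glutathione S-transferase model Glyma15g40190.1 had 102 RPKM in CG and 29.3 in CS.

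The other 2 of these models were higher in CS. The Kunitz trypsin inhibitor Glyma08g45540.1, which blocks digestive enzymes of insects, had 52.5 RPKM in CG and 78.1 in CS. The putative allergen Glyma15g15660.1 had 1.38 RPKM in CG and 5.55 in CS, a log2 ratio of -1.94. Tags higher in CS by DGE chose all 9 models of the list, which also depends on the picking.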

How the data were processed

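RNA of pooled shoot tips of the isolines was sequenced, with 1 library per line. Per the study's methods, the authors mapped the reads with Bowtie, version not given in the sources used here, to Glyma cDNA models with up to 3 mismatches and 25 alignments per read, and deposited RPKM values, 1 per model and library. The use of strand is not given in the sources used here. RPKM is not a count, and no count test was run.

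Members were taken from the study's tag list and looked up in the deposited tables. A pairing without a suffix was read as the first model of the locus. The members, families and lists were chosen with earlier results of these data known. All members were named, with the other models of their loci and a list of 9 defense-related models. The reference table matched 0 of 69145 Glyma loci, so annotations are those of the tag list, no pathway lists by gene description or promoter motifs could be made, no coordinates were used, and chromosomes are read from the Glyma numbers. The identity of the tissue was likewise not checked against a list of markers.

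Log2((CG + 0.1)/(CS + 0.1)) was taken, and a model was counted as different at 2-fold or more where its mean over both lines was at least 1 RPKM. The ratio between the libraries' values of 1 alignment, and the largest total that gave whole model lengths, yielded total alignments. For each model the smallest length from 60 to 20000 bases that made both values whole gave its alignments and the exact 95% intervals. A count of 0 allows 3 alignments, which on 1000 bases is an RPKM of 0.0204 in CG and 0.0196 in CS. The steps were tested on simulated data with known totals and changes. The simulation left out models of the shortest recovered lengths, so it says nothing about those. Alternatives were a pseudocount of 1 or of 0.01, a minimum mean of 10 RPKM or none, median-centring, scaling to the same 75th percentile, 1 model per locus, and the members without antisense-only pairings. Leaving out models of a recovered length under 300 bases was added after seeing the data. SciPy 1.17.1, pandas 2.3.3 and NumPy 2.4.6 were run under Python 3.11.15, and figures were drawn with matplotlib 3.10.9.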

Additional observations from a re-analysis of the deposited data

How the results depend on the processing

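No paired analysis was possible because a single library stands for CG and another for CS, and none could be left out. The number of members at least 2-fold higher in CG was 24 as reported and lay between 21 and 24 under the alternatives run. The number at least 2-fold higher in CS was 0 as reported and 1 with median-centring and with scaling to the same 75th percentile, in both cases the zinc finger model Glyma19g07000.1. The median log2 CG/CS ratio of the members, 2.52 as reported, was 2.25 with a pseudocount of 1 and 2.58 with one of 0.01, 2.50 with no filter and 2.73 with a mean RPKM of 10 or more, 2.18 with median-centring and 2.19 with scaling to the same 75th percentile. It was 2.50 with 1 model per locus, without the antisense-only pairings, and without models of a recovered length under 300 bases. Of 140 alternative values for single members, 4 changed sign, those of Glyma06g44780.1 and Glyma18g08080.1 under both rescalings. With 1 library per line, depth limits only the least covered models, and differences between plants are not covered.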

Other observations

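The photosynthesis genes of the same tag list lay on the other side. All 5 of their models, which tags higher in CS by DGE had chosen, were at least 2-fold lower in CG, as were 5.57% of all expressed models. They ranged over 16.2 to 280.9 RPKM in CG and over 42.0 to 1406 RPKM in CS. Rubisco activase, which keeps the carbon-fixing enzyme active, had 98.1 RPKM in CG and 1406 RPKM in CS for Glyma11g34230.1, a log2 CG/CS ratio of -3.84. The chlorophyll a/b-binding model Glyma16g27990.1 had 189 RPKM in CG and 990.3 RPKM in CS. The ferredoxin model Glyma05g30200.1 had 145 RPKM in CG and 405.7 RPKM in CS. The least abundant, Glyma10g43690.1, had 16.2 RPKM in CG and 42.0 RPKM in CS. Their relation to the levels of the defense and transcription models was not tested.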
